A study of Mus musculus with 12 samples.

Results

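Medulla-derived renal progenitor cultures were set against cortex-derived ones in mouse, using 4 of the 12 arrays of the series: 2 from medulla-derived and 2 from cortex-derived cells. Probe sets that name 1 gene alone covered 18193 genes, and 13031 that exceeded the median of each array in at least 1 group were tested. The progenitor cells were isolated from the inner kidney (medulla) or the outer kidney (cortex) and grown on a layer of fibroblast feeder cells. The other 8 arrays held medulla and cortex organoids, formed in 3D Matrigel, and medulla and cortex tissue, 2 arrays per group. The labels name no treatment or altered allele. Strain, age and the number of cells or colonies behind a culture are not stated in the labels used. The labels call the replicates biological, without saying whether they came from separate animals, so the p-values measure the spread between these samples. That spread was taken from all 12 arrays in 6 groups, not from the 4 progenitor arrays alone.

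The cortex holds glomeruli, proximal tubules and distal convoluted tubules, while the medulla holds the loops of Henle and most of the length of the collecting ducts. Proximal tubule cells take up fatty acids, water and filtered solutes, and collecting ducts descend from the ureteric bud and contain principal and intercalated cells. Cells put into culture usually lose much of this segment expression, and the comparison asks which differences between the regions are present in the cultured progenitors.

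RNA was measured on Affymetrix 3' expression arrays. A level here is log2 of the MAS5 signal plus an offset of 15.1592 signal units, so the lowest possible level is 3.92. Differences are medulla minus cortex on that scale, which understates the change of dim genes. A gene passed the test when its limma adjusted p was under 0.05 over the 13031 genes tested. Replicates correlated across genes with r = 0.988 in medulla-derived and 0.990 in cortex-derived cultures, and arrays of different region with r between 0.982 and 0.987. The median absolute difference between replicates was 0.161 in medulla-derived and 0.128 in cortex-derived cultures. Xist lay between 12.11 and 13.10 on all 12 arrays, and no value of the 9 Y-linked probe sets exceeded 5.82, so the arrays did not differ in these markers of sex.

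The cultures carried the label of renal epithelial progenitors, and their markers were compared first. Levels of the simple epithelial markers were high on all 4 arrays, with Krt8 at 14.82 and 15.17 in medulla-derived cultures and 14.93 and 14.75 in cortex-derived cultures. Epcam, an epithelial adhesion protein, had 13.10 and 13.34 in medulla-derived and 13.20 and 13.06 in cortex-derived cultures (difference 0.08 ± 0.25, SE). Pax8, a renal lineage factor, had 11.41 and 11.61 against 11.24 and 11.33 in cortex-derived cultures (0.23 ± 0.15). These are markers of the renal epithelium and none of the 3 passed the test, though both medulla arrays lay above both cortex arrays for Pax8. Sox9, a progenitor factor, had 9.62 and 9.58 in medulla-derived and 9.64 and 9.73 in cortex-derived cultures. The proliferation antigen Mki67 had 11.51 and 11.57 in medulla-derived and 11.57 and 11.64 in cortex-derived cultures. Defining genes of mature segments had low levels in both: Lrp2, the megalin receptor, 4.59 and 5.42 in medulla-derived against 4.86 and 4.996 in cortex-derived cultures, and Umod, the urinary protein of the thick ascending limb, 4.86 and 4.57 against 5.67 and 5.08 in cortex-derived cultures. Of the 34 marker genes followed, 31 were tested and 1, Gata3, passed the test.

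Few genes passed the test between regions, which on simulated data recovered 37% of 1-unit log2 changes and 82% of 2-unit changes. Of the 13031 genes, 41 passed the test, a background of 0.315%: 36 (0.276%) were higher and 5 (0.0384%) were lower in medulla-derived cultures. At an unadjusted p under 0.05 there were 643 (4.93%). The median difference over all genes was 0.0041 and the median absolute difference 0.1343, against a median SE of 0.2541. Of the 41 genes, 36 differed at least 2-fold, 32 of them higher. Over all genes 267 (2.05%) differed at least 2-fold, 231 of them without passing the test. Both medulla arrays lay above both cortex arrays for 2909 genes (22.3%) and below them for 2666 genes (20.5%), so groups of 2 that do not overlap were common. Without cortex replicate 1 or 2, 19 or 20 genes passed, and without medulla replicate 1 or 2, 13 or 15. In a fit of the 4 progenitor arrays alone 145 passed, 40 of the 41 among them. The 12 genes that passed whichever of the 4 progenitor arrays was left out were Plagl1, Gzme, Slc27a2, Sprr2f, Gzmd, Cdo1, Gpx3, Spink8, St8sia6, Zfp503, Ldhd and Clec2d. Another 18 passed under none of these omissions: Adgrf5, P2rx2, Gimap3, Stra6l, Gata3, Pmp22, Stard8, Plet1, Cotl1, Gstt2, Stox2, Car2, Tceal8, Defb1, Vldlr, Klf4, Irs1 and Fuom.

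**Figure D1:**
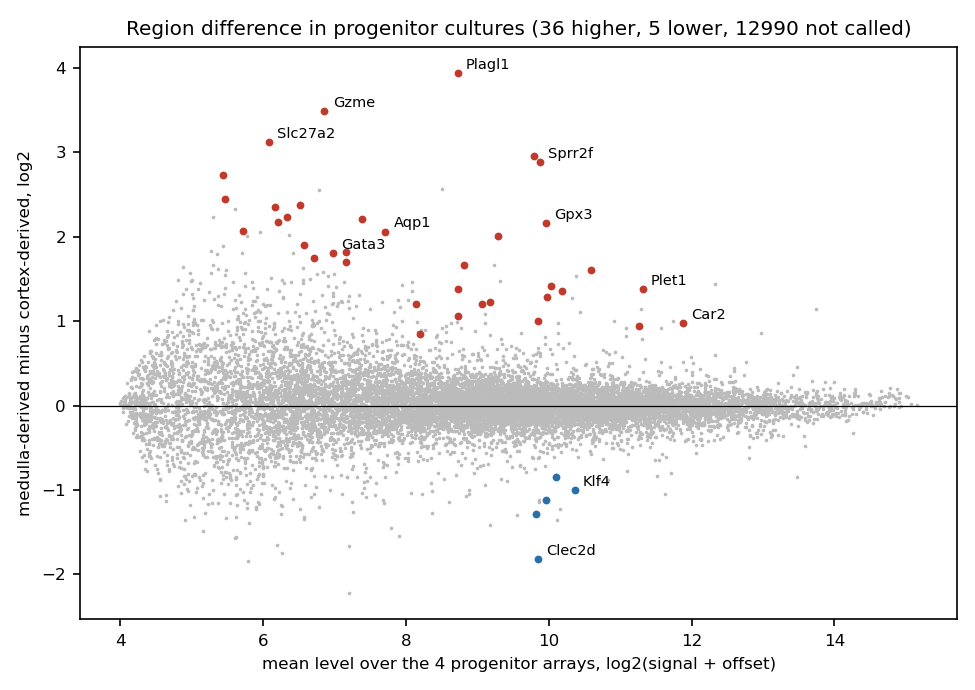
Each point is 1 of the 13031 genes tested. The horizontal axis is the mean level over the 4 progenitor arrays and the vertical axis is the medulla-derived minus cortex-derived difference, both in log2 units, with the 36 higher genes in red, the 5 lower genes in blue and 12990 others in grey. Most genes lie close to 0, and Plagl1 has the largest difference, 3.94.

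The 41 genes were named by size of change (19 genes) or as members of listed gene groups (8). The other 14, Gzme, Crispld2, Kcnj15, Zfp503, Efemp1, Pmp22, Stard8, Plet1, Cotl1, Ctla2a, Smpdl3a, Ldhd, Stox2 and Tceal8, were named after their values were seen. All 41 had arrays of 1 region on 1 side of the other, which the test makes likely. Of the 36 higher genes, 15 were above the array median only in medulla-derived cultures and 21 in both regions. The 5 lower genes were above it in both. The grouping of the 41 by role below was made after their values were seen, and says nothing of such roles among all genes.

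**Figure D2:**
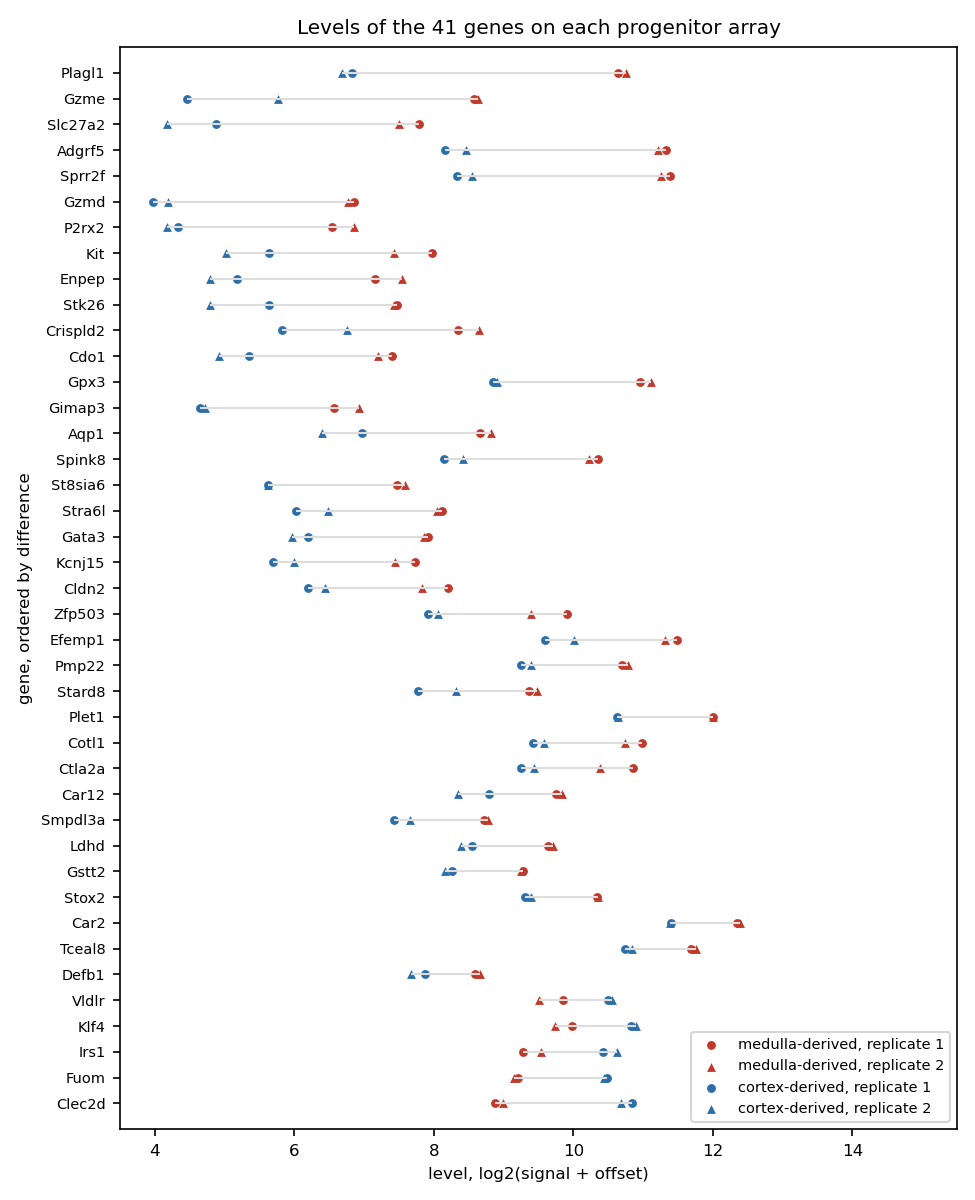
Levels of the 41 genes on each of the 4 progenitor arrays, in log2(signal + offset), with medulla-derived arrays in red and cortex-derived arrays in blue, circles for replicate 1 and triangles for replicate 2. Replicates of a region lie close together for most genes, and Gzme in cortex-derived cultures, with 4.46 and 5.77, is spread the widest.

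Regulators of transcription are given first. Plagl1, an imprinted zinc-finger factor that restrains the cell cycle, had 10.63 and 10.76 in medulla-derived cultures, against 6.83 and 6.68 in cortex-derived cultures. This was a 15.3-fold difference (3.94 ± 0.15, adjusted p = 1.24e-07). Its probe set is of a type that can cross-hybridize, as are those of Gzme, Crispld2, Cotl1 and Vldlr. The other 2 Plagl1 probe sets lay near the floor, one with 5.35 and 4.91 in medulla-derived and 5.31 and 5.10 in cortex-derived cultures. With the mean of all its probe sets the difference was 1.39 and Plagl1 no longer passed (adjusted p = 0.0919). That setting ended the call of 8 genes in all. Car12 then differed by 0.42, Stox2 by 0.59, Plet1 by 0.86, Kcnj15 by 0.88, Cotl1 by 0.96, Crispld2 by 1.09 and Vldlr by -0.66, with adjusted p between 0.0919 and 1 over the 8. Gata3, a factor of the nephric and collecting duct, had 7.91 and 7.86 in medulla-derived and 6.19 and 5.96 in cortex-derived cultures (1.81 ± 0.27, adjusted p = 0.0122). It did not pass once any 1 of the 4 progenitor arrays was left out. Zfp503, a zinc-finger repressor, had 9.91 and 9.39 in medulla-derived and 7.92 and 8.06 in cortex-derived cultures (1.66 ± 0.18), and a second probe set differed by 2.10 and also passed. Stox2, a winged-helix protein, had 10.34 and 10.36 against 9.30 and 9.39 in cortex-derived cultures.

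Klf4, a Kruppel-like factor of epithelial differentiation, was the regulator that fell. It had 9.98 and 9.74 in medulla-derived cultures, against 10.83 and 10.90 in cortex-derived cultures (-1.005 ± 0.15, adjusted p = 0.0096), and its other probe set fell by 1.15 and passed. It was the 1 member of the 14 tested Kruppel-like factor genes to pass, and the median of that list was -0.0354. The share of all genes that were lower was 0.0384%.

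Promoters of called genes were searched for the motifs of the called regulators, on both strands, in RefSeq windows of the GRCm38.p6 build that run 250 bases before to 50 after a gene's start. Windows were found for 33 of the 41 genes. The motifs searched were AGATAA for GATA factors, GGGNGTGG for Kruppel-like factors and GGGGCCCC for Plagl1, which is its own reverse complement. Each window shown holds 1 of the 3 motifs. They were chosen after the values of these regulators were seen. The 4 windows below show where matches to the first pair of motifs lie in genes that were higher in medulla-derived cultures, with the match in capitals and each sequence 5' to 3' on the gene's strand. They are Gata3 at chr2:9878551-9878850 (minus strand), Kit at chr5:75574737-75575036 (plus strand), Kcnj15 at chr16:95257308-95257607 (plus strand) and Ctla2a at chr13:60936576-60936875 (minus strand).
Gata3: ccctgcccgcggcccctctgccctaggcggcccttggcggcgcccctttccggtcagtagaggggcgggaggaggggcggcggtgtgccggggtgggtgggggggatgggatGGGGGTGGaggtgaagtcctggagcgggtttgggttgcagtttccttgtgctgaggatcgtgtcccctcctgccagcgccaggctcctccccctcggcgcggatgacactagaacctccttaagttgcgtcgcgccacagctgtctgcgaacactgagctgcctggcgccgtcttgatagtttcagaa
Kit: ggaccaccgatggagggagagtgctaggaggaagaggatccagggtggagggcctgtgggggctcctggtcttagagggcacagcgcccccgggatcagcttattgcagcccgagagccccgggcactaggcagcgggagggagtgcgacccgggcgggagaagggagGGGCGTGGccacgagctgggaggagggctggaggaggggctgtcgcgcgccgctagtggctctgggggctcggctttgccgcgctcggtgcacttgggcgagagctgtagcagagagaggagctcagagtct
Kcnj15: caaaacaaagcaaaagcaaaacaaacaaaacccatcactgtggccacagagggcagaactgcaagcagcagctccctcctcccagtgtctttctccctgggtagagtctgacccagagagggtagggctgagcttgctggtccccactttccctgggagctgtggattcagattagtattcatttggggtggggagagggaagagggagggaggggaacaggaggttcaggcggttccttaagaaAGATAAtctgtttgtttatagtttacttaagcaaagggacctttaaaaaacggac
Ctla2a: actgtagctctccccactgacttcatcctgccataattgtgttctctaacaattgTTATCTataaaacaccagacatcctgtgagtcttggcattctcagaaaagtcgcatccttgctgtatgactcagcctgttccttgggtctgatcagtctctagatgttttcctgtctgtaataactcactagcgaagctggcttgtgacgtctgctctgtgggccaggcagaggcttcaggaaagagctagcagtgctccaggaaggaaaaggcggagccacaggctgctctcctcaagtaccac
Gata3 and Kit hold a Kruppel-like factor match, and Kcnj15 and Ctla2a a GATA match. No other higher gene held a GATA match. The GATA motif was in 2 of the 35 windows of higher genes (5.71%), against 6.75% of the 13415 windows of tested genes and 11.2% of all 32851 windows. The Kruppel-like motif was in 7 of 35 windows (20%) of higher genes and 1 of 7 (14.3%) of lower genes, that of Irs1, against 22.8% of windows of tested genes and 17.6% of all windows. The Plagl1 motif was in 0 of 35 and 0 of 7, against 1.54% of windows of tested genes and 1.08% of all. A match is a description of the sequence and not a binding site.

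Some of the higher genes encode transporters and channels. Slc27a2, which carries and activates long-chain fatty acids in proximal tubules, had 7.78 and 7.50 in medulla-derived cultures, against 4.87 and 4.18 in cortex-derived cultures (3.12 ± 0.23, adjusted p = 9.11e-05). Aqp1, the water channel of proximal tubules and thin descending limbs, had 8.66 and 8.82 in medulla-derived and 6.97 and 6.39 in cortex-derived cultures (2.06 ± 0.30). Cldn2, the paracellular cation pore of the proximal tubule, had 8.204 and 7.83 against 6.20 and 6.44 in cortex-derived cultures (1.70 ± 0.21). All 3 are known from the proximal tubule, whose list went both ways: of its 30 tested genes 10 lay above and 8 below without overlap, with differences down to -0.98. Kcnj15, an inward-rectifier potassium channel, had 7.74 and 7.45 in medulla-derived and 5.69 and 5.998 in cortex-derived cultures (1.75 ± 0.23). P2rx2, an ATP-gated channel, had 6.54 and 6.86 in medulla-derived cultures, against 4.32 and 4.17 near the floor in cortex-derived cultures (2.45 ± 0.36). Stra6l, a receptor for retinol-binding protein, had 8.11 and 8.04 in medulla-derived and 6.03 and 6.49 in cortex-derived cultures (1.82 ± 0.27).

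Others encode enzymes and detoxifying proteins. Gpx3, a secreted glutathione peroxidase made by proximal tubules, had 10.96 and 11.11 in medulla-derived and 8.85 and 8.90 in cortex-derived cultures (2.16 ± 0.19, adjusted p = 0.000319). Cdo1, cysteine dioxygenase, had 7.40 and 7.20 in medulla-derived and 5.35 and 4.91 in cortex-derived cultures (2.17 ± 0.22). Enpep, the aminopeptidase A that cleaves angiotensin II, had 7.15 and 7.54 in medulla-derived and 5.18 and 4.79 in cortex-derived cultures (2.36 ± 0.32). All 3 are genes of mature tubules. Their groups did not overlap, which passing the test makes likely, and 22.3% of all genes lay above without overlap. Lrp2 and Umod, also genes of mature tubules, did not pass, with differences of 0.08 and -0.65. Ldhd, D-lactate dehydrogenase, had 9.64 and 9.71 in medulla-derived and 8.55 and 8.39 in cortex-derived cultures (1.20 ± 0.13). Its second probe set differed by 1.33 and passed. Car2, a cytosolic carbonic anhydrase, had 12.34 and 12.39 in medulla-derived and 11.39 and 11.39 in cortex-derived cultures (0.98 ± 0.13), while the membrane-bound Car12 had 9.75 and 9.84 against 8.79 and 8.35 in cortex-derived cultures (1.23 ± 0.19). St8sia6, a sialyltransferase, Gstt2, a glutathione transferase, and Smpdl3a, a phosphodiesterase, were also higher, by 1.90 ± 0.19, 1.06 ± 0.18 and 1.21 ± 0.16.

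Receptors and kinases stood among the higher genes too. Adgrf5, an adhesion G protein-coupled receptor, had 11.32 and 11.21 in medulla-derived cultures, against 8.16 and 8.46 in cortex-derived cultures (2.96 ± 0.43, adjusted p = 0.0096). Kit, the receptor of stem cell factor, had 7.97 and 7.42 in medulla-derived and 5.63 and 5.03 in cortex-derived cultures (2.37 ± 0.34, adjusted p = 0.00946). Stk26, a Ste20-type kinase, had 7.48 and 7.42 in medulla-derived and 5.64 and 4.80 in cortex-derived cultures (2.23 ± 0.34). The replicates of cortex-derived cultures differed more than those of medulla-derived cultures for Stk26. Outside these classes, Stard8 was higher by 1.38 ± 0.24, and Tceal8 by 0.94 ± 0.13. Stk26, Stard8, Cldn2 and Tceal8 lie on the X chromosome, which held 4 of the 41 genes (9.76%) and 397 of the tested genes (3.05%).

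The lower genes other than Klf4 had several roles. Irs1, the insulin receptor substrate, had 9.28 and 9.53 in medulla-derived and 10.43 and 10.62 in cortex-derived cultures (-1.12 ± 0.19, adjusted p = 0.0341). Vldlr, a lipoprotein receptor, fell too, with 9.85 and 9.50 in medulla-derived and 10.50 and 10.55 in cortex-derived cultures (-0.85 ± 0.15). Its 5 other probe sets were also lower, and none of them passed. Fuom, a fucose mutarotase, had 9.21 and 9.15 in medulla-derived and 10.48 and 10.44 in cortex-derived cultures (-1.28 ± 0.16). The largest fall was that of Clec2d, a lectin-like ligand of a natural killer cell receptor. It had 8.88 and 8.99 in medulla-derived cultures, against 10.84 and 10.68 in cortex-derived cultures (-1.82 ± 0.15, adjusted p = 0.000247).

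Secreted, surface and barrier proteins made up much of the rest. Sprr2f, a cornified envelope precursor, had 11.38 and 11.25 in medulla-derived cultures, against 8.32 and 8.55 in cortex-derived cultures (2.88 ± 0.22, adjusted p = 0.000107). Spink8, a Kazal-type protease inhibitor, had 10.36 and 10.23 in medulla-derived and 8.15 and 8.41 in cortex-derived cultures (2.01 ± 0.18). Plet1, an epithelial surface protein, had 12.008 and 11.999 in medulla-derived and 10.62 and 10.63 in cortex-derived cultures (1.37 ± 0.22). For these 3 genes the replicates differed by far less than the regions, which passing the test makes likely. One other Plet1 probe set did not share the direction, with 6.30 and 6.71 in medulla-derived and 6.33 and 6.80 in cortex-derived cultures. Defb1, an antimicrobial beta-defensin, was higher by 0.85 ± 0.12.

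Some genes of the group are also made by mesenchymal cells. Efemp1, the matrix protein fibulin-3, had 11.48 and 11.32 in medulla-derived and 9.59 and 10.004 in cortex-derived cultures (1.603 ± 0.23). Crispld2, a secreted protein, had 8.34 and 8.64 in medulla-derived and 5.83 and 6.75 in cortex-derived cultures (2.20 ± 0.32), though its other probe sets differed by 0.74 and 0.34 and did not pass. Pmp22, a membrane protein, was higher by 1.42 ± 0.19, and Cotl1, which binds actin, by 1.36 ± 0.19. None of the 5 other Cotl1 probe sets passed. Beside these genes, the mean level of the 26 tested fibroblast and mesenchyme genes was 8.85 and 8.87 in medulla-derived and 8.60 and 8.54 in cortex-derived cultures. None of the 26 passed, 15 had both medulla arrays above both cortex arrays and 2 below, against 22.3% and 20.5% of all genes, and the median was 0.2872. RNA of the feeder fibroblasts may be in these samples, its part in the result was not tested, and fewer cells of a type and less RNA per cell cannot be told apart in bulk samples.

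Genes known from lymphocytes stood among the higher genes. Gzme, a granzyme protease, had 8.57 and 8.63 in medulla-derived and 4.46 and 5.77 in cortex-derived cultures (3.49 ± 0.42, adjusted p = 0.003). Gzmd, its neighbour on chromosome 14, had 6.85 and 6.77 in medulla-derived cultures, against 3.97 and 4.19 near the floor in cortex-derived cultures (2.73 ± 0.31, adjusted p = 0.00238). Gzmd and Gzme are near-identical paralogs, so their probe sets can share signal and the pair is uncertain as to which gene is measured. The second Gzmd probe set differed by 2.79 and passed. With an offset of 1 signal unit neither gene passed: Gzme differed by 4.39 (adjusted p = 0.196) and Gzmd by 5.29 (adjusted p = 0.0579). Gzmb, by contrast, had 5.34 and 4.29 in medulla-derived and 4.37 and 4.02 in cortex-derived cultures. Gimap3, a lymphocyte GTPase, was higher by 2.07 ± 0.37 (adjusted p = 0.0431, and 0.0815 with that offset), and Ctla2a, a cysteine protease inhibitor, by 1.28 ± 0.19. Ptprc, the common leukocyte antigen, had 6.15 and 6.19 in medulla-derived and 6.04 and 6.41 in cortex-derived cultures. The 15 tested immune cell genes averaged 5.59 and 5.79 in medulla-derived and 5.85 and 5.70 in cortex-derived cultures, with 0 past the test and a median of -0.0538.

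The lists of gene groups were then counted. The 54 lists, which share some genes, held 1018 tested genes, of which 14 passed (1.38%, against 0.315% of all genes), 12 higher and 2 lower. Over all genes 0.276% were higher and 0.0384% lower. The lists were chosen with earlier results of these data known. There were 17 lists with a gene past the test and 37 with none. List medians lay between -0.2096 for hypoxia and 0.3083 for smooth muscle, against 0.0041 over all genes.

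Nephron segment lists held a few of the called genes each, where 0.276% of all genes were higher and 0.0384% lower. Of 30 proximal tubule genes 2 were higher, Slc27a2 and Aqp1, with a list median of 0.1744. Of 15 intercalated cell genes 2 were higher, Kit and Car2 (median 0.0344), and Gata3 was the 1 of 21 principal cell genes (median 0.1895). Aqp1 was also the 1 of 11 thin limb genes (0.0763). Without overlap, 10 proximal tubule genes lay above and 8 below, with 4 and 2 for intercalated cells and 8 and 2 for principal cells. The shares of all genes were 22.3% above and 20.5% below. No gene passed among 15 of the thick ascending limb (median 0.0442), 13 of the distal tubule (0.1193) or 11 of podocytes (-0.0444). Some uncalled genes had large differences and were picked after their values were seen. Scnn1g, a subunit of the collecting duct sodium channel, had 6.18 and 6.10 in medulla-derived and 4.17 and 4.77 in cortex-derived cultures (1.67 ± 0.31, adjusted p = 0.0517). Cldn16, a claudin of the thick ascending limb, had 7.40 and 7.35 in medulla-derived and 4.55 and 6.17 in cortex-derived cultures (2.02 ± 0.41, adjusted p = 0.0805). The cortex replicates of Cldn16 differed widely.

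Developmental lists leaned either way. Gata3 was the 1 gene past the test among 20 ureteric bud genes (median 0.1531, 11 above and 4 below without overlap), 39 renal transcription factors (-0.1347, 7 above and 19 below) and 16 urothelial genes (-0.0464, 2 above and 3 below). Over all genes 22.3% lay above and 20.5% below, and 0.276% passed the test as higher. None of 15 metanephric mesenchyme genes passed. Among them Osr1, a factor of early kidney mesenchyme picked after its values were seen, had 7.05 and 5.15 in medulla-derived and 8.32 and 8.32 in cortex-derived cultures (-2.22 ± 0.68, adjusted p = 0.391). None of 25 Hox genes passed, with 3 above and 15 below without overlap, against 22.3% and 20.5% of all genes, and a median of -0.1662. The 30 simple epithelium genes averaged 11.53 and 11.70 in medulla-derived and 11.62 and 11.59 in cortex-derived cultures, with none past the test, and the 29 cell cycle genes averaged 10.89 and 10.92 against 10.94 and 10.95 in cortex-derived cultures. Plagl1 was the 1 of 23 imprinted and insulin-like growth factor genes to pass.

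No gene passed in the matrix and contractile lists. Their medians were 0.2999 for 31 noncollagen matrix genes, 0.2217 for 25 collagens and 0.3083 for 12 smooth muscle genes. Col1a1, the collagen of fibroblasts, had 10.19 and 10.14 in medulla-derived and 9.49 and 9.59 in cortex-derived cultures (0.63 ± 0.17, adjusted p = 0.274). Tagln, a smooth muscle protein picked after its values were seen, had 9.73 and 9.85 in medulla-derived and 7.04 and 7.39 in cortex-derived cultures (2.57 ± 0.55, adjusted p = 0.105). Acta2, smooth muscle actin, had 11.80 and 11.92 against 10.74 and 10.71 in cortex-derived cultures (1.14 ± 0.48). The arrays of each region were close together for these genes, and the SE comes from all 6 groups. In the fit of the 4 progenitor arrays alone 145 of the 13031 genes passed. Acta2 and Tagln were among them, with 3 of 26 fibroblast genes, 4 of 31 noncollagen matrix genes and 3 of 25 collagens. The 20 endothelial genes averaged 5.97 and 6.12 in medulla-derived and 5.77 and 5.73 in cortex-derived cultures, with none past the test.

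Stress, immune and signalling lists followed. Of 29 interferon response genes none passed, 1 lay above and 13 below without overlap, against 22.3% and 20.5% of all genes, and the median was -0.1269. Of 21 amino acid stress genes Vldlr fell, 0 lay above and 13 below without overlap, against the same shares of all genes, and the median was -0.1749. Klf4 was the 1 immediate early gene of 22 to pass. None passed among 20 interleukin 1 and 6 family genes (median 0.2845), 40 TGF-beta and BMP genes (0.1168), 36 Wnt genes (0.0246), 19 Notch genes (-0.0057) or 22 tubular injury genes (0.1482). Among the injury genes Havcr1, kidney injury molecule 1, had 13.44 and 13.37 in medulla-derived and 12.58 and 12.51 in cortex-derived cultures (0.85 ± 0.24, adjusted p = 0.321). The detoxification list held 2 higher genes of 31, Gpx3 and Gstt2. Car12 was higher in the hypoxia list of 19, whose median was nonetheless -0.2096. The shares of all genes past the test were 0.276% higher and 0.0384% lower.

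**Figure D3:**
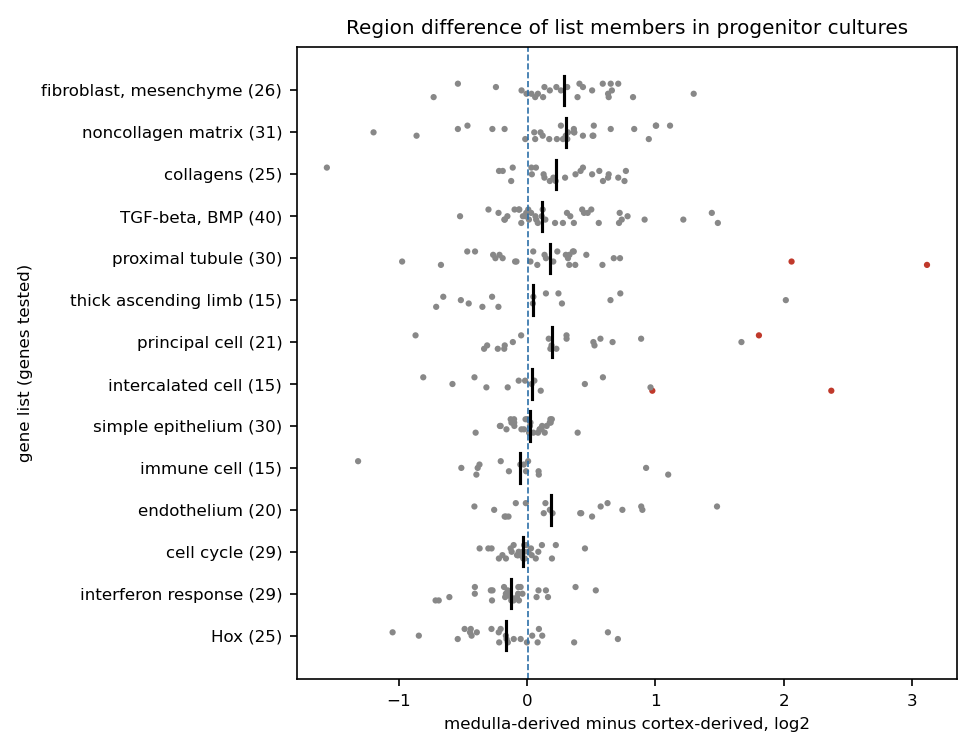
Each point is 1 tested gene of a list, placed by its medulla-derived minus cortex-derived difference in log2 units, with genes past the test in red, list medians as black bars and the number tested in brackets. A dashed line marks the median of all genes, 0.0041. Most points of every list lie between -1 and 1, and the fibroblast and matrix medians of 0.2872 and 0.2999 lie to the right of the line.

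Some technical controls of these 4 arrays separated by region and others did not. Control values are log2 signals as deposited, without the offset. The median of the poly-A controls, which are added before labelling, was 6.98 and 7.14 on medulla arrays and 6.74 and 6.81 on cortex arrays. The 3' minus 5' difference of Gapdh was -0.351 and -0.405 on medulla arrays and -0.298 and -0.314 on cortex arrays. For beta-actin it was 0.163 and 0.167 on medulla arrays and 0.187 and 0.170 on cortex arrays. The hybridization controls overlapped, with medians of 11.51 and 11.24 on medulla arrays and 11.50 and 11.48 on cortex arrays. The part of these controls in the region difference was not tested. Of the 41 genes, 18 had another probe set. Of the 24 such probe sets above the array median in a progenitor group, 23 had the sign of the called one and 4 passed the same way.

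The region difference of the 41 genes was compared with that in organoids and in tissue. In organoids 2339 genes (17.9%) passed for region, and 22 of the 41 passed the same way, 20 higher and 2 lower. Over all genes 7.94% were higher and 10% lower in medulla organoids. That is 53.7% of the 41 and 0.941% of the organoid genes. Another 5, Car12, Gstt2, Stox2, Vldlr and Clec2d, passed in organoids the opposite way. The organoid arrays had poly-A medians between 0.919 and 2.49 (log2 as deposited, without the offset), far below those of the progenitor arrays. Their Gapdh 3' minus 5' difference was 1.53 and 1.67 on cortex and 1.15 and 0.867 on medulla organoid arrays. On progenitor arrays it lay between -0.405 and -0.298. The beta-actin difference overlapped between the organoid regions. The part of these controls in the organoid counts was not tested. Leaving out 1 organoid array gave between 18 and 24 of the 41 in the same direction and between 1 and 5 in the opposite one. In a fit of the 4 organoid arrays alone 13 of the 41 passed, 12 in the same direction and 1 in the opposite one. The 17.9% belongs to the fit of all 12 arrays. The share of all genes in the other fits is not given, so their counts cannot be set against it. In tissue 44 genes (0.338%) passed for region, 43 higher (0.33%) and 1 lower (0.00767%), and Plet1 was the 1 of the 41 among them, 2.44% of the 41 and 2.27% of the tissue genes. Plet1 had a difference of 1.37 in progenitor cultures and 1.35 in tissue (adjusted p = 0.0317). It did not pass in tissue without tissue cortex replicate 1 or 2, or without tissue medulla replicate 1, or in a fit of the 4 tissue arrays alone.

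The median difference of the 36 higher genes was 1.814 in progenitor cultures, 0.902 in organoids and 0.0018 in tissue. Over all genes it was -0.0022 in organoids and 0.0133 in tissue. The 36 were chosen on the progenitor values, so that the first of these medians is large by that choice. In tissue, 21 of the 41 had the sign they had in culture. For 21 of the 36 higher genes the tissue level averaged over regions was at least 1 log2 unit above both progenitor means. For 6 that average was at least 1 log2 unit below the mean of medulla-derived cultures. Slc27a2 illustrates the first of these sets, with 7.78 and 7.50 in medulla-derived cultures and 4.87 and 4.18 in cortex-derived cultures, against means of 15.12 in both tissues. Sprr2f illustrates the second, with 11.38 and 11.25 in medulla-derived cultures, against tissue means of 4.62 in medulla and 4.61 in cortex.

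**Figure D4:**
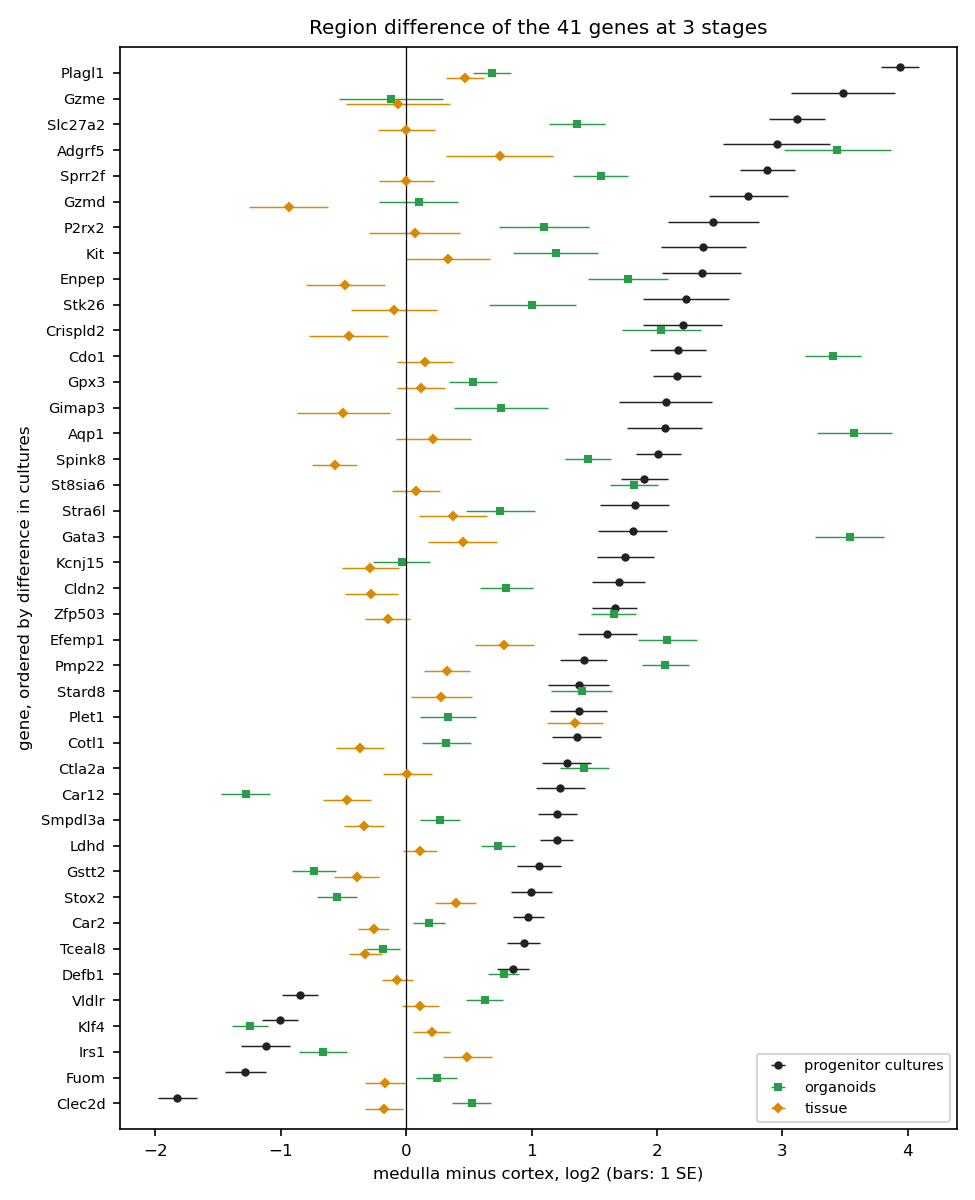
Medulla minus cortex difference of each of the 41 genes in log2 units, with progenitor cultures in black, organoids in green and tissue in orange, and bars of 1 SE. Most tissue points lie close to 0, and for Gata3 and Aqp1 the organoid difference, 3.54 and 3.57, is larger than that in cultures.

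Whether the region difference itself depended on stage was tested as an interaction. Between progenitor cultures and tissue 37 genes (0.284%) passed, 21 with a positive gap (0.161%) and 16 with a negative one (0.123%), and 24 of the 37 were among the 41. All 24 had the larger difference in progenitor cultures. Plagl1 differed by 3.94 in progenitor cultures and by 0.47 in tissue, so that the gap was 3.47 (adjusted p = 2.7e-05). Clec2d differed by -1.82 in progenitor cultures and by -0.18 in tissue, a gap of -1.65 (adjusted p = 0.0074). Without 1 array the number among the 41 was between 6 and 11, except that it was 24 without tissue medulla replicate 2, and the total was between 11 and 21 and 122 without that array. The 41 were selected on the progenitor arrays, so a larger difference there is partly set by the selection.

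Between progenitor cultures and organoids 535 genes (4.11%) passed, 323 with a positive gap (2.48%) and 212 with a negative one (1.63%). Of the 535, 17 were among the 41, and 13 genes passed both interactions. In 16 of the 17 the difference ran further in the progenitor direction, as for Gzme (3.49 in progenitor cultures, -0.12 in organoids, gap 3.60, adjusted p = 0.00796). Gata3 was the exception, with 1.81 in progenitor cultures and 3.54 in organoids (gap -1.73, adjusted p = 0.0327). In organoids Gata3 averaged 9.19 in medulla-derived and 5.65 in cortex-derived ones. Without 1 progenitor or organoid cortex array between 122 and 212 genes passed, 10 to 13 of them among the 41. Without organoid medulla replicate 1 or 2, 1609 or 2510 passed, 21 or 22 of them among the 41.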

How the data were processed

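RNA from 4 progenitor arrays and, for the shared error, 8 organoid and tissue arrays was used. Per the submitters' processing notes MAS5 produced the signals (no version is stated). The deposited values are log2 signals per probe set. They were unlogged, raised by an offset of 15.1592 (the 25th percentile of the signals) and logged again. Of 45101 probe sets, 34945 had 1 gene symbol, 932 several and 9224 none, controls included; the gene IDs of 34741 are in the current RefSeq table. Each of 18193 genes was represented by its brightest probe set. The 13031 genes tested exceeded the median of the array on every array of 1 group or more. The members and lists were chosen with earlier results of these data known.

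A single linear model of the 12 arrays (6 group means, 6 residual degrees of freedom) was fitted in R 4.3.3 with limma 3.58.1 (empirical Bayes with a mean-variance trend, two-sided tests, Benjamini-Hochberg adjustment, threshold 0.05). The number of arrays limits the precision. On simulated data for the progenitor comparison, with 200 of 13031 genes changed, the test recovered 37% of 1-unit log2 changes and 82% of 2-unit changes and made 8 false calls. Named genes were the 15 largest rises and 15 largest falls past the threshold, at least 2-fold, with arrays that do not overlap and the higher group above the array median, leaving out unnamed gene models and cross-hybridizing probe sets. Added to them were up to 6 called members of a list, 34 followed markers and the 5 largest each way of each interaction. Alternatives covered the normalization, offset, brightness filter, choice of probe set, samples and variance model in the fit, a replicate block and leaving out single arrays.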

Additional observations from a re-analysis of the deposited data

Results flagged for a closer look

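For 24 of the 41 genes the medulla minus cortex difference in progenitor cultures differed from that in tissue. The test was the interaction test of limma with Benjamini-Hochberg adjustment, which 37 of all 13031 genes (0.284%) passed. The 41 were selected on the progenitor arrays, so a larger difference there is partly set by the selection. The progenitor difference minus the tissue difference, in log2 units, was 3.47 for Plagl1, 3.55 for Gzme, 3.11 for Slc27a2, 2.88 for Sprr2f, 3.66 for Gzmd, 2.84 for Enpep and 2.66 for Crispld2. It was also 2.02 for Cdo1, 2.05 for Gpx3, 2.58 for Spink8, 1.82 for St8sia6, 2.03 for Kcnj15, 1.97 for Cldn2 and 1.81 for Zfp503. It was also 1.73 for Cotl1, 1.70 for Car12, 1.54 for Smpdl3a, 1.09 for Ldhd, 1.45 for Gstt2, 1.23 for Car2 and 1.26 for Tceal8. It was negative for genes that fell in medulla-derived cultures: -1.21 for Klf4, -1.61 for Irs1 and -1.65 for Clec2d.

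For 17 of the 41 genes the progenitor difference differed from that in organoids by the same test. Of all 13031 genes 535 (4.11%) did so. The progenitor difference minus the organoid difference was 3.26 for Plagl1, 3.60 for Gzme, 1.76 for Slc27a2, 1.33 for Sprr2f, 2.63 for Gzmd, 1.63 for Gpx3 and 1.79 for Kcnj15. Other values were 2.51 for Car12, 0.94 for Smpdl3a, 1.79 for Gstt2, 1.55 for Stox2, 0.79 for Car2 and 1.12 for Tceal8. Negative values were -1.73 for Gata3, -1.47 for Vldlr, -1.53 for Fuom and -2.35 for Clec2d. Gata3, whose organoid difference was larger, is the gene among these with a negative value that was higher in medulla-derived cultures. Groups of 2 arrays were too small to look for single samples that stand apart.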

How the results depend on the processing

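The 41 region genes kept their direction under every alternative tried, in 697 gene and setting results with 0 reversals, of which 172 no longer passed the test. Many of these results could not reverse. The progenitor arrays of the 41 genes did not overlap by region, so leaving 1 out keeps the sign. Settings of the variance model, the block or the groups in the fit leave the difference itself unchanged. Of the 41, 9 passed under all 15 alternatives other than the 2 added later and 12 after every single array was left out, while 18 passed after none of these omissions. The count of genes past the test was 63 with an offset of the median signal, 145 with the compared groups alone and 13 to 20 with 1 array left out. It was 105 in a fit without the organoid arrays, chosen after seeing the data. With the replicate number as a block it was 23. The labels do not say that equal numbers pair samples, and deviations of same-numbered progenitor arrays correlated at r = -0.111; the crossed pairing, added after seeing the data, gave 21. For the difference from tissue the count was 71 with the compared groups alone, 23 without a variance trend, 17 with the replicate block and 11 to 122 with 1 array left out, against 37. For the difference from organoids it was 266 with the compared groups alone, 241 with the replicate block and 122 to 2510 with 1 array left out, against 535. The cause of these shifts was not tested.

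Markers that did not pass changed sign under some settings. Hnf4a was -0.135 with the mean of all probe sets and -0.43 with the brightest probe set in progenitors, and Ret was 0.36 with the mean. With 1 array left out the differences ran between -0.064 and 0.44 for Aqp2, -0.50 and 0.27 for Aqp3, -0.34 and 0.0125 for Cdh1, -0.0355 and 0.20 for Epcam, -0.38 and 1.04 for Hnf4a, -0.59 and 0.48 for Hoxd11, -0.12 and 0.15 for Krt19, -0.085 and 0.33 for Krt5, -0.016 and 0.24 for Krt7, -0.0236 and 0.33 for Krt8, -0.00519 and 0.43 for Lcn2, -0.34 and 0.50 for Lrp2, -0.24 and 0.13 for Ptprc, -0.36 and 0.00367 for Ret, and -0.13 and 0.53 for Slc34a1. Of 918 list counts 143 moved by over 1.5 times. Signal over background limits the dim genes, whose folds depend on the offset.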
